A study of Mus musculus with 12 samples.

Results

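The genes described here code for the WNT ligands, for the Frizzled and LRP receptors that bind them, for the receptors Ror2 and Ryk, and for Porcn and Wls, which the sending cell needs to release a ligand. They were chosen by symbol alone: every gene named Wnt or Fzd with a number, plus Lrp5, Lrp6, Ror2, Ryk, Porcn and Wls. This rule found 35 genes of the 23715 in the files, and 24 of them reached 1 FPKM (fragments mapped to a gene, per length of its transcript and per depth of the library) in at least 3 of the 12 mice and were tested among 13059 such genes. The other 11, Wnt1, Wnt3, Wnt3a, Wnt4, Wnt6, Wnt7a, Wnt8a, Wnt8b, Wnt9b, Wnt10a and Fzd10, stayed below that level.

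WNT ligands are secreted lipid-modified proteins. Porcn attaches the lipid, Wls carries the ligand to the cell surface, and on the receiving cell a ligand that joins a Frizzled receptor to Lrp5 or Lrp6 keeps beta-catenin from being degraded, so that it acts with TCF and LEF proteins on transcription. Other ligands, Wnt5a and Wnt11 among them, are mostly known for signalling through Frizzled, Ror2 and Ryk without beta-catenin, and WNT signalling through Lrp5 is a known driver of bone formation.

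The RNA came from the calvaria, the flat bones of the skull vault, of newborn C57BL/6 mice; the methods narrow this to parietal bone at postnatal day 2. Each of 4 groups had 3 mice, sequenced 1 library per mouse. In the first set, mice labelled Med23-/- with a deletion specific to mesenchymal stem cells (Med23MSC-/- here, labelled P-KO) were compared with their control littermates (labelled WT and P-Ctrl). Their floxed Med23 exons were removed by Prx1-Cre, which is active in limb and craniofacial mesenchyme, so that other cells of the bone kept Med23. In the second set, Runx2+/- mice (labelled R-Het), which lack 1 copy of this osteoblast transcription factor in every cell, were compared with WT mice (labelled R-WT). Both sets ask how the loss of Med23, a subunit of the Mediator complex, compares with the loss of 1 Runx2 copy in bone.

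Facts of all the libraries bear on the values below. Med23, summed over its transcripts, lay between 4.54 and 5.99 FPKM in the controls and between 4.89 and 5.74 FPKM in the Med23MSC-/- mice, and Runx2 lay between 27.3 and 37.7 FPKM in the WT mice and between 30.4 and 35.7 FPKM in the Runx2+/- mice. For Med23, a sum that includes exons outside the deleted part, in tissue with undeleted cells, gives no check of the genotype. Runx2 RNA was not lower in the Runx2+/- mice (log2 fold change 0.09 ± 0.13, SE, adjusted p = 0.7955, limma). The sum does not tell the 2 alleles apart, and why it was not lower was not tested. Groups are named as labelled. In the Med23 set Runx2 lay between 30.5 and 38.0 FPKM in the controls and between 23.7 and 28.7 FPKM in the mutants, without overlap. Its log2 fold change there, -0.40 ± 0.12 (SE), did not pass the test used below (adjusted p = 0.127, limma). Depth was estimated at 7700000 to 11700000 fragments per mouse. Osteoblast markers were high in every mouse, with 21590 to 49800 FPKM summed over 10 genes. Skeletal muscle markers summed to 26.3 to 1549 FPKM in the controls, 665 to 4654 FPKM in the Med23MSC-/- mice, 2139 to 6387 FPKM in the WT mice and 30.9 to 209 FPKM in the Runx2+/- mice. Xist, an RNA made in female cells, was at 37.8 to 49.1 FPKM in controls 2 and 3 and in WT mouse 1 and at or below 0.0663 FPKM in the other 9 mice, so that sex differed between the groups in both sets. In bulk tissue fewer cells of a type and less RNA per cell cannot be told apart.

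Wls was the most abundant of the 35 transcripts, with 109 to 144 FPKM in the 12 mice, followed by Ryk with 48.9 to 59.3 FPKM. Both stood apart from the gene next below them in every mouse. Below Ryk came Fzd1 (mean 25.3 FPKM), Lrp5 (21.8 FPKM), Fzd2 (20.5 FPKM), Fzd7 (17.0 FPKM) and Wnt9a (16.8 FPKM), and from Fzd1 downward each gene overlapped with the next of the 24 in its range over the mice. Since FPKM is per length, such levels of different genes can be set side by side. Among the ligands, Wnt9a, Wnt2, Wnt5b, Wnt5a and Wnt10b together held 80.3% to 86.8% of all ligand FPKM in each mouse. Among the Frizzled genes, the closely related Fzd1, Fzd2 and Fzd7 held 68.4% to 77.4%. The plot of levels by gene shows how little the groups moved this order.

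**Figure D1:**
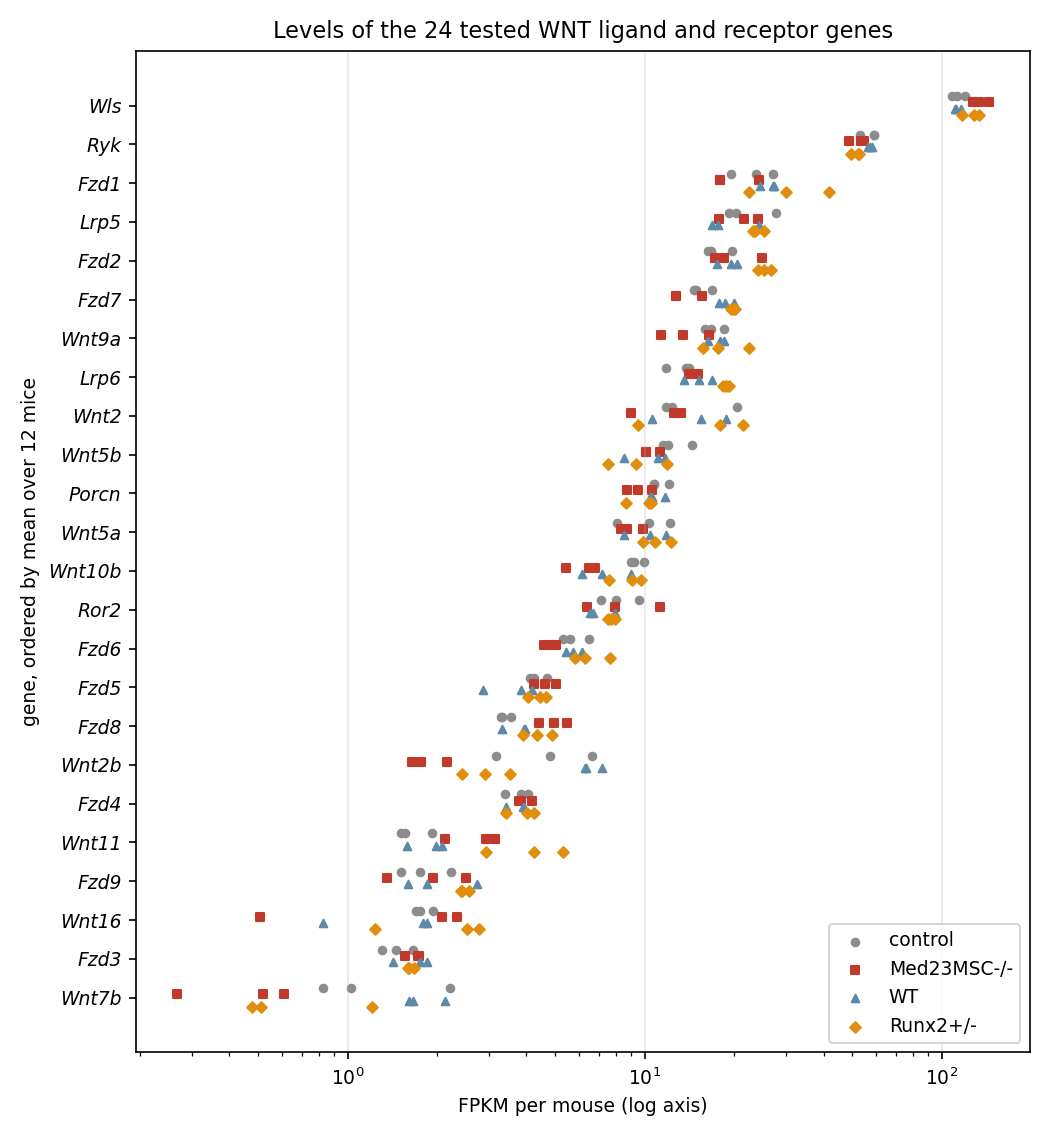
FPKM of the 24 tested genes in each of the 12 mice on a log axis, 1 point per mouse, with genes ordered by their mean over the mice. Wls (109 to 144 FPKM) and Ryk (48.9 to 59.3 FPKM) lie above all other genes, and Wnt7b (0.266 to 2.21 FPKM) lies lowest.

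The 11 genes left out of the test were near or at 0. Wnt4 (0.343 to 1.04 FPKM), Wnt6 (0.144 to 1.14 FPKM), Wnt1 (0.0576 to 1.04 FPKM) and Fzd10 (0.139 to 0.893 FPKM) were present in every mouse, whereas Wnt3, Wnt3a, Wnt7a, Wnt8a, Wnt8b, Wnt9b and Wnt10a were listed at 0 in at least 1 mouse and did not exceed 0.216 FPKM. The rule holds 4 pairs of neighbouring ligand genes (GRCm38), and in 2 of them a gene near 0 lies beside a tested one. Wnt3a lies 16097 bases from Wnt9a on chromosome 11 and averaged 0.00349 FPKM against 16.8 FPKM. Wnt1 lies 11650 bases from Wnt10b on chromosome 15 and averaged 0.488 FPKM against 7.95 FPKM. In the other pairs both genes were low, at 0.0115 and 0.024 FPKM for Wnt3 and Wnt9b on chromosome 11 and at 0.694 and 0.105 FPKM for Wnt6 and Wnt10a on chromosome 1.

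In the Med23MSC-/- mice none of the 24 genes passed the test at an adjusted p of 0.05, where 1.57% of all tested genes did, 73 lower and 132 higher. The split moved to 86 lower and 57 higher when each mouse was rescaled by its median ratio. At an unadjusted p of 0.05, 6 members passed against 21.3% of all genes, namely Wnt2b, Wnt7b and Wnt10b with lower values (5.63% of all genes) and Wnt11, Fzd8 and Wls with higher values (15.7%). In the Runx2+/- mice, 1 member passed, Wnt2b, which was lower, where 1.89% of all tested genes did and 1.49% did so as lower. At the unadjusted p, 5 members passed against 15.4% of all genes, namely Wnt2b and Wnt7b with lower values (8.32%) and Wnt11, Fzd2 and Lrp6 with higher values (7.09%). Adjusted p-values here and below are from limma with Benjamini-Hochberg adjustment over the 13059 genes, and fold changes are on the log2(FPKM + 1) scale, which understates changes of low genes.

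The ranges of mutant and control mice did not overlap for 9 members in the Med23 set, against 27.3% of all genes, and for 7 members in the Runx2 set, against 21.1%. In the Med23 set Wnt2b, Wnt5b, Wnt7b, Wnt10b, Fzd6 and Porcn lay below the controls, against 7.68% of all genes, and Wnt11, Fzd8 and Wls lay above them, against 19.6%. In the Runx2 set Wnt2b, Wnt7b and Ryk lay below WT, against 10.4% of all genes, and Wnt11, Fzd2, Lrp6 and Wls lay above it, against 10.7%. In both sets at once, Wnt2b and Wnt7b lay below, against 1.7% of all genes, and Wnt11 and Wls lay above, against 3.03%. Wnt7b passed the filter of 1 FPKM mainly through control and WT mice.

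**Figure D2:**
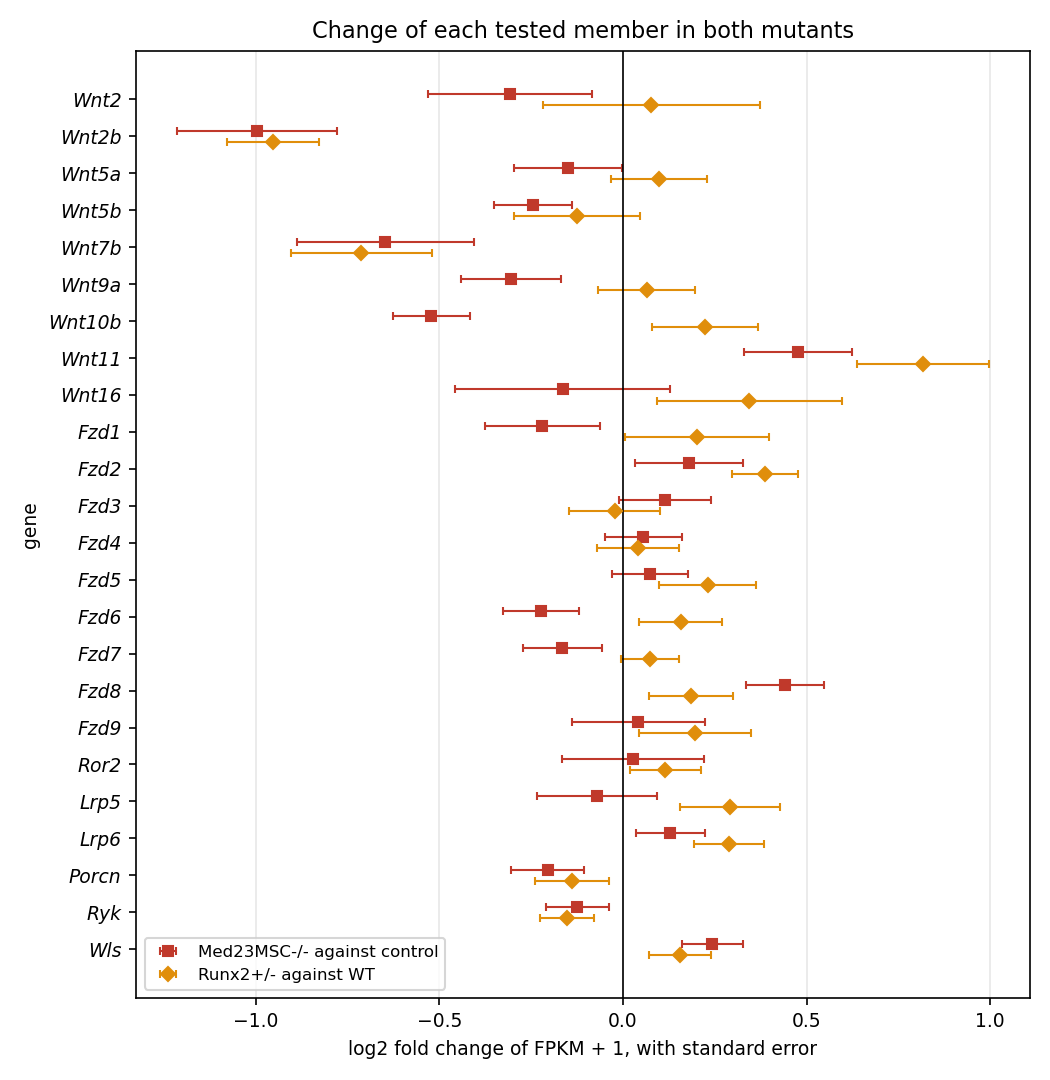
Log2 fold change of FPKM + 1 for each of the 24 tested genes, with its limma standard error, in Med23MSC-/- mice against controls (squares) and in Runx2+/- mice against WT (diamonds). Wnt2b lies furthest to the left in both sets (-1.0 and -0.95) and Wnt11 furthest to the right (0.48 and 0.82).

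Of the genes for ligand release, Wls, the carrier of WNT ligands, was at 120, 109 and 113 FPKM in the controls and at 144, 133 and 127 FPKM in the Med23MSC-/- mice. It was at 116, 112 and 111 FPKM in the WT mice and at 117, 129 and 133 FPKM in the Runx2+/- mice. The mutants lay above their controls in both sets, by 1.19 and 1.12 times the control mean, although the nearest mice of the second set were close. The log2 fold changes were 0.24 ± 0.08 (SE, n = 3 per group; adjusted p = 0.165, limma) and 0.16 ± 0.08 (adjusted p = 0.435, limma), and neither passed the test. Porcn, the enzyme that adds the lipid and an X-linked gene, was at 10.7, 12.1 and 10.7 FPKM in the controls and at 10.6, 8.70 and 9.49 FPKM in the Med23MSC-/- mice. These did not overlap, although the nearest mice were close, and the log2 fold change of -0.20 ± 0.10 did not pass the test (adjusted p = 0.287, limma); with the most abundant transcript alone it was -0.08 (adjusted p = 0.752, limma; range 0.201 to 0.752). Porcn overlapped in the Runx2 set, at 10.4, 10.6 and 11.7 FPKM in WT and 10.4, 8.67 and 10.5 FPKM in Runx2+/- mice.

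Wnt2b, a ligand of the beta-catenin pathway related to Wnt2, had the largest change of the members on the log2(FPKM + 1) scale in both sets; by the ratio of means, the fall of the lower Wnt7b was larger. Its level was 6.65, 3.15 and 4.80 FPKM in the controls and 2.16, 1.77 and 1.65 FPKM in the Med23MSC-/- mice. It was 6.31, 7.17 and 6.33 FPKM in the WT mice and 3.52, 2.90 and 2.43 FPKM in the Runx2+/- mice. Every mutant lay below every mouse of its own control group, and the controls of the Med23 set were spread more widely than the WT mice. The means fell to 0.382 times the control (4.87 ± 1.75 to 1.86 ± 0.27 FPKM, SD, n = 3) and to 0.446 times WT (6.60 ± 0.49 to 2.95 ± 0.55 FPKM, SD, n = 3). The log2 fold change was -0.95 ± 0.12 (SE; adjusted p = 0.0176, limma) in the Runx2 set, which passed the test. It was -1.0 ± 0.22 (SE; adjusted p = 0.0721, limma) in the Med23 set, which did not. The difference between these changes was -0.04 ± 0.27 (adjusted p = 0.964, limma), so the set with the call was not shown to differ from the one without.

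The call in the Runx2 set was lost without WT mouse 1, the only mouse with Xist there, although its Wnt2b value was the lowest of the WT mice. Without this mouse the log2 fold change was -0.98 and the adjusted p was 0.0652 (limma). Lower calls over all genes fell from 195 to 28 in that fit. When each mouse was left out in turn, the adjusted p of Wnt2b ranged from 0.0332 to 0.0652 (limma). Without a filter on low values the adjusted p was 0.104 (limma). Leaving out 1 mouse at a time moved the Wnt2b change between -1.06 and -0.86 in the Runx2 set and between -1.22 and -0.78 in the Med23 set. Marker genes of other cells passed the test in the Runx2 set too. Of 10 muscle markers 9 passed the test as lower, of 8 endothelial markers 1 (summed 132 to 148 FPKM in WT and 97.9 to 115 FPKM in Runx2+/- mice), and of 7 macrophage and osteoclast markers 1 (5358 to 6648 and 3595 to 4446 FPKM). Of 6 suture and periosteal mesenchyme markers 1, Msx2, passed as higher (log2 fold change 0.55 ± 0.10, adjusted p = 0.0474, limma; 0.0568 to 0.184 with 1 mouse left out). In the Med23 set 0 of the 10 muscle markers passed (2 at an unadjusted p of 0.05 in limma, both higher). Erythroid markers lay on the same side as Wnt2b in both sets, with all 7 tested genes of 8 below 0 and none past the adjusted test in limma (4 and 7 past an unadjusted p of 0.05); they summed to 15700 to 21390 FPKM in the controls and 8660 to 14410 FPKM in the Med23MSC-/- mice, and to 18360 to 20980 FPKM in WT and 4777 to 19280 FPKM in Runx2+/- mice. The 7 macrophage and osteoclast markers were all below 0 in both sets as well, with medians of -0.34 and -0.46. At an unadjusted p of 0.05 in limma, 0 of them passed in the Med23 set and 5 in the Runx2 set. The part of all these cells in the Wnt2b values was not tested. Wnt2b rested on an estimated 48 to 252 fragments per mouse.

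The promoter of Wnt2b is shown since it is the only member that passed the test, next to those of Wnt11, whose mutants lay on the opposite side in both sets, and of Wnt10b, whose values went apart between the sets. Each run holds the 250 bases before and 50 bases from the start of a RefSeq transcript (GRCm38.p6), written along the gene. Capitals mark the letters TGTGGT or TGCGGT of the RUNX core and CTTTGAT or CTTTGTT of the TCF/LEF core, or their reverse complement.
Wnt2b, chr3:104961660-104961959, minus strand: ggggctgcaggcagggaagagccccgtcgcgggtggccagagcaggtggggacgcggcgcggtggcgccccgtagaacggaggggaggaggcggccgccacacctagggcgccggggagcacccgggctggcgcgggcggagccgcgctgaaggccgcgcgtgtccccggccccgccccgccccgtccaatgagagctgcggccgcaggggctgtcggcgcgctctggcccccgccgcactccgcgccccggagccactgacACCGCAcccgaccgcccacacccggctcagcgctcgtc
Wnt11, chr7:98834862-98835161, plus strand: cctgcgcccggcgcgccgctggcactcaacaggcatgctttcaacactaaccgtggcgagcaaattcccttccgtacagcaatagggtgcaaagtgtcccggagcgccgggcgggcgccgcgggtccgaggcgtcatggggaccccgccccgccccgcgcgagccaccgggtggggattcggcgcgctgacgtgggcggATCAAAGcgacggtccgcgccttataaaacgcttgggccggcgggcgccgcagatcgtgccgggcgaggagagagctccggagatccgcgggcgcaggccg
Wnt11, chr7:98838595-98838894, plus strand: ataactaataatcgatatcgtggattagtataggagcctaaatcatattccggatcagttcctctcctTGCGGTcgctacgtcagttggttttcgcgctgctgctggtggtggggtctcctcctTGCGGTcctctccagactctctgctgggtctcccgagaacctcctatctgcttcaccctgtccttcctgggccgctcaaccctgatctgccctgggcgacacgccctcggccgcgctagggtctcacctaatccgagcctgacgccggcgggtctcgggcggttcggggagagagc
Wnt10b, chr15:98778101-98778400, minus strand: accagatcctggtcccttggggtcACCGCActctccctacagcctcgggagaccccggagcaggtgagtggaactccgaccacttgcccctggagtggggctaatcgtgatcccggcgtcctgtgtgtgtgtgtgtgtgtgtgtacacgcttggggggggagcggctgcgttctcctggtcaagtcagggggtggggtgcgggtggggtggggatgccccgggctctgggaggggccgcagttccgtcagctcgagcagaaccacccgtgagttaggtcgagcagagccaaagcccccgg

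Wnt2b held 1 RUNX core, 13 bases into the transcript on the opposite strand, and Wnt10b held 1, 226 bases before its start. Of the Wnt11 starts, the upstream one had 1 TCF/LEF core 51 bases before it and the downstream one had RUNX cores 182 and 126 bases before it. Of all 32851 promoters in the RefSeq table, 22.4% held a RUNX core and 9.33% a TCF/LEF core. Of the 27 promoters found for 24 of the 35 members, 3 held a RUNX core and 4 a TCF/LEF core. All 3 with a RUNX core are among those printed above, and no other member promoter held one. No promoter was found for Wnt7b. In the promoters of all tested genes, 20.7% held a RUNX core and 6.17% a TCF/LEF core. These are matches of letters in a short window and say nothing of binding. The members' promoters were rich in CpG, with a median of 31 in 300 bases against 7 in all promoters and 20 in those of the tested genes.

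Wnt7b, a ligand with a known role in bone formation, followed Wnt2b at a lower level. It was at 2.21, 1.03 and 0.823 FPKM in the controls and at 0.519, 0.266 and 0.609 FPKM in the Med23MSC-/- mice. It was at 1.66, 1.61 and 2.12 FPKM in the WT mice and at 0.510, 0.476 and 1.21 FPKM in the Runx2+/- mice. Again every mutant lay below every control of its set, and the mutant means were 0.343 and 0.408 times those of the controls. It reached 1 FPKM in 6 mice, mostly controls and WT mice, so it passed the filter mainly through the groups where it was high. The log2 fold changes of -0.65 ± 0.24 (adjusted p = 0.191, limma) and -0.71 ± 0.19 (adjusted p = 0.12, limma) did not pass the test. With a pseudocount of 0.1 FPKM they were -1.30 and -1.29. Without control mouse 1, the highest, the Med23 value was -0.40 (adjusted p = 0.325, limma), and with the most abundant transcript in place of the sum the Runx2 value was -0.40 (adjusted p = 0.691, limma), within adjusted p-values of 0.0611 to 0.691 over all alternatives of both sets.

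Wnt11, known for signalling without beta-catenin, went the other way. It was at 1.51, 1.56 and 1.93 FPKM in the controls and at 3.13, 2.13 and 2.91 FPKM in the Med23MSC-/- mice. It was at 1.58, 2.08 and 1.98 FPKM in the WT mice and at 2.93, 4.25 and 5.30 FPKM in the Runx2+/- mice. Every mutant lay above every control of its set, with means 1.64 and 2.21 times higher. The log2 fold change was 0.48 ± 0.15 (adjusted p = 0.136, limma) in the Med23 set and 0.82 ± 0.18 (adjusted p = 0.0697, limma) in the Runx2 set, and neither passed the test. The estimate behind it was 30 to 74 fragments per mouse.

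**Figure D3:**
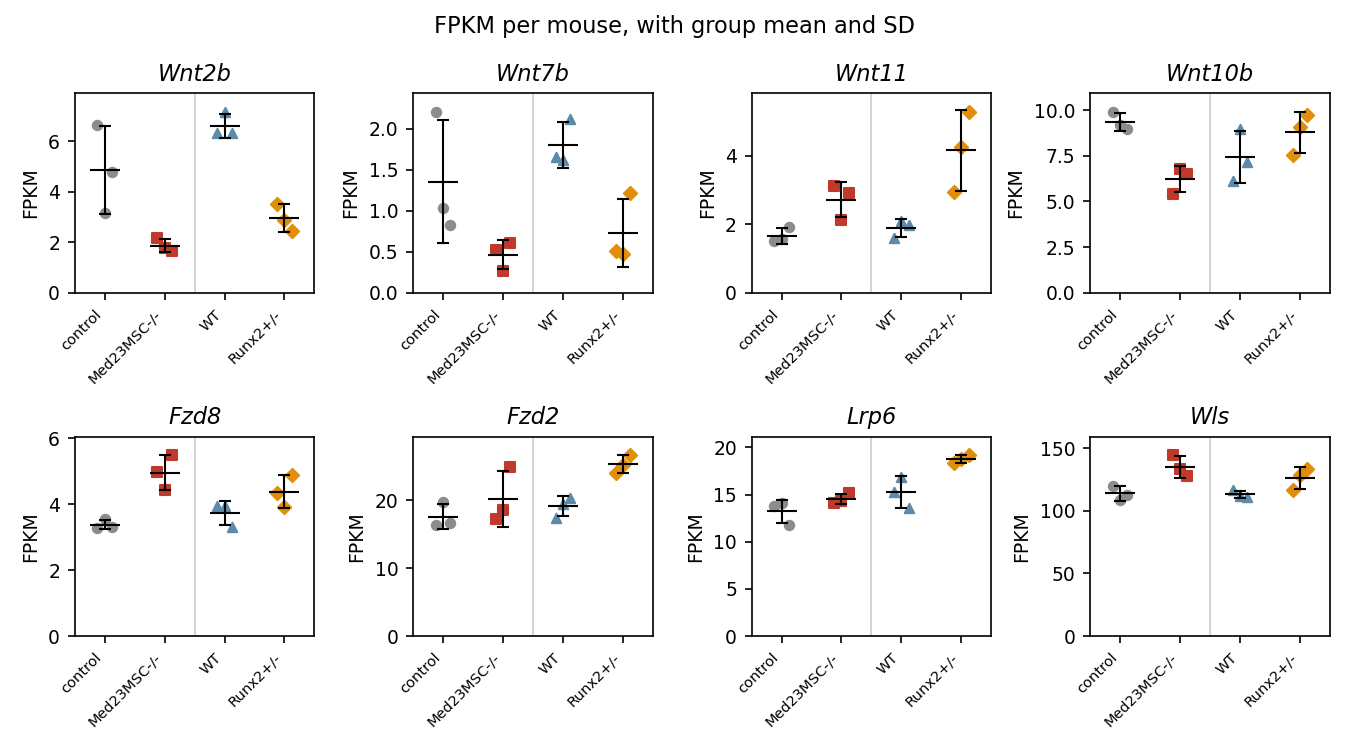
FPKM of 8 genes in each mouse (points), with the mean and SD of the 3 mice of a group (bars); the vertical line parts the Med23 set from the Runx2 set. Wnt2b and Wnt7b are lower in the mice of both mutants, Wnt11 and Wls are higher, and Wnt10b lies below its controls without overlap in the Med23MSC-/- mice, at 5.43 to 6.80 FPKM against 8.97 to 9.92 FPKM.

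Wnt10b, a ligand known to favour osteoblasts over fat cells, differed between the sets more than any other tested member. It was at 9.92, 9.21 and 8.97 FPKM in the controls and at 5.43, 6.80 and 6.49 FPKM in the Med23MSC-/- mice. It was at 6.13, 8.96 and 7.16 FPKM in the WT mice and at 7.56, 9.05 and 9.72 FPKM in the Runx2+/- mice. The Med23MSC-/- mice lay below their controls without overlap, at 0.666 times the mean, whereas the mice of the second set overlapped, at 1.18 times the mean. The log2 fold change was -0.52 ± 0.10 (adjusted p = 0.06, limma) in the Med23 set and 0.22 ± 0.14 (adjusted p = 0.522, limma) in the Runx2 set. The difference between them was -0.75 ± 0.18, with an unadjusted p of 0.00173 (limma) and an adjusted p of 0.0907 (limma), which did not pass. At an unadjusted p of 0.05 the change of 2 members, Wnt10b and Fzd6, differed between the sets, against 15.3% of all genes, and at an adjusted p of 0.05 that of 0, against 0.153%.

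The remaining tested ligands moved less. Wnt5b, which signals mainly without beta-catenin, was at 14.5, 11.6 and 11.96 FPKM in the controls and at 10.1, 11.3 and 10.1 FPKM in the Med23MSC-/- mice, without overlap but with the nearest mice close. Its log2 fold change was -0.24 ± 0.11 (adjusted p = 0.245, limma) there and -0.12 ± 0.17 (adjusted p = 0.792, limma) in the Runx2 set, where the mice overlapped. Wnt2, Wnt5a, Wnt9a and Wnt16 overlapped between mutant and control mice in both sets. In the Med23 set 8 of 9 tested ligands, all but Wnt11, had a log2 fold change below 0, with a median of -0.30 beside 0.06 for all genes, of which 38.7% were below 0. Of the same 9 ligands, 3 were below 0 in the Runx2 set, with a median of 0.08 beside 0.03 for all genes, of which 43.9% were below 0. Added over all ligand genes, FPKM was 68.7 to 82.3 in the controls and 58.1 to 61.7 in the Med23MSC-/- mice, without overlap, and 68.4 to 84.7 in WT and 74.0 to 80.7 in Runx2+/- mice, with overlap. Osteoblast markers also differed in the Med23 set, where all 10 were below 0 and 2 passed the test as lower, with summed levels of 47110 to 49800 FPKM in the controls and 21590 to 29760 FPKM in the Med23MSC-/- mice. The part of osteoblasts in the ligand values was not tested.

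Of the Frizzled receptors, Fzd8 was higher in the Med23MSC-/- mice, at 3.29, 3.54 and 3.30 FPKM in the controls and 4.97, 4.41 and 5.49 FPKM in the mutants. The groups did not overlap, the mean was 1.47 times the control, and the log2 fold change of 0.44 ± 0.11 did not pass the test (adjusted p = 0.0871, limma). Fzd8 overlapped in the Runx2 set, at 3.93, 3.95 and 3.31 FPKM in WT and 4.34, 3.90 and 4.89 FPKM in Runx2+/- mice. For Fzd2 the set without overlap was the other one. It overlapped in the Med23 set, at 16.3, 19.7 and 16.7 FPKM in the controls and 17.2, 18.5 and 24.9 FPKM in the mutants, and lay above WT in the Runx2+/- mice, at 17.5, 19.5 and 20.4 FPKM against 24.01, 25.1 and 26.6 FPKM. The log2 fold change of Fzd2 in the Runx2 set was 0.39 ± 0.09 (adjusted p = 0.0796, limma), 1.32 times the WT mean, and the change did not pass the test. The difference between the sets did not pass for either Fzd8 (adjusted p = 0.443, limma) or Fzd2 (adjusted p = 0.638, limma).

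Fzd6, a receptor tied to planar cell polarity, was at 5.59, 6.52 and 5.31 FPKM in the controls and at 4.82, 5.04 and 4.59 FPKM in the Med23MSC-/- mice, without overlap. It was at 5.45, 6.17 and 5.73 FPKM in WT and at 6.32, 5.82 and 7.66 FPKM in Runx2+/- mice, with overlap. Its log2 fold changes of -0.22 ± 0.10 (adjusted p = 0.268, limma) and 0.16 ± 0.11 (adjusted p = 0.565, limma) did not pass the test, and their difference of -0.38 ± 0.15 did not either (adjusted p = 0.247, limma). Fzd1, the Frizzled gene with the highest mean over the 12 mice, overlapped in both sets. It was at 27.0, 23.8 and 19.5 FPKM in the controls and at 17.9, 17.9 and 24.3 FPKM in the Med23MSC-/- mice. It was at 27.2, 27.1 and 24.5 FPKM in WT and at 29.8, 22.4 and 41.7 FPKM in Runx2+/- mice. Runx2+/- mouse 3 was the highest by a wide margin. Fzd3, Fzd4, Fzd5, Fzd7 and Fzd9 overlapped in both sets as well. In the Runx2 set 8 of 9 tested Frizzled genes had a log2 fold change above 0, with a median of 0.18 beside 0.03 for all genes, of which 56.1% were above 0, and in the Med23 set 6 of 9 had, with a median of 0.06 beside 0.06 for all genes, of which 61.3% were above 0. The summed Frizzled FPKM was 82.7 to 88.9 in WT and 89.5 to 114 in the Runx2+/- mice, without overlap but with the nearest mice close. It was 70.9 to 83.0 in the controls and 70.0 to 88.4 in the Med23MSC-/- mice, with overlap. Markers of other cells lay above 0 as well in the Runx2 set. Of 6 suture and periosteal mesenchyme markers 5 were above 0 (median 0.31; 1 past the adjusted and 4 past the unadjusted test; summed 1177 to 1467 FPKM in WT and 1216 to 1554 FPKM in Runx2+/- mice), and of 10 cartilage markers 9 were (median 0.38; 0 past the adjusted and 2 past the unadjusted test in limma; 123 to 158 and 155 to 198 FPKM). Their part in the receptor and Wnt11 values was not tested.

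The LRP co-receptors pass the signal of a bound ligand to the cell. Lrp6 was at 15.3, 16.9 and 13.5 FPKM in WT and at 18.4, 18.7 and 19.2 FPKM in Runx2+/- mice, without overlap. It overlapped in the Med23 set, at 13.8, 14.1 and 11.8 FPKM in the controls and 14.1, 14.4 and 15.1 FPKM in the mutants. Its log2 fold changes were 0.29 ± 0.10 (adjusted p = 0.198, limma) and 0.13 ± 0.09 (adjusted p = 0.466, limma), and neither passed the test. Lrp5 overlapped in both sets, at 17.7, 24.3 and 16.8 FPKM in WT and 25.2, 23.5 and 23.1 FPKM in Runx2+/- mice, and at 19.2, 27.6 and 20.3 FPKM in the controls and 17.7, 24.02 and 21.7 FPKM in the Med23MSC-/- mice. Its log2 fold changes were 0.29 ± 0.14 (adjusted p = 0.363, limma) and -0.07 ± 0.16 (adjusted p = 0.838, limma). Added up, Lrp5 and Lrp6 reached 30.4 to 41.2 FPKM in WT and 42.2 to 43.6 FPKM in Runx2+/- mice, without overlap but with the nearest mice close.

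Of the other receptors, Ryk, an inactive receptor kinase that binds WNT ligands, was at 57.5, 58.3 and 56.6 FPKM in WT and at 49.6, 52.9 and 52.4 FPKM in Runx2+/- mice. The groups did not overlap, and the log2 fold change of -0.15 ± 0.07 did not pass the test (adjusted p = 0.388, limma). Ryk overlapped in the Med23 set, at 59.3, 53.2 and 59.3 FPKM in the controls and 48.9, 53.6 and 54.9 FPKM in the mutants, with a log2 fold change of -0.12 ± 0.09 (adjusted p = 0.442, limma). Ror2, the receptor tyrosine kinase for Wnt5a, lay between 6.40 and 11.3 FPKM in the 12 mice and overlapped in both sets.

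The other genes of the pathway were counted in 5 lists. Of the secreted inhibitors, 11 of 14 were tested. At an adjusted p of 0.05, 1 of them rose in the Med23 set, where 1.01% of all genes did and 0.559% fell, and 2 rose and 1 fell in the Runx2 set, where 0.398% of all genes rose and 1.49% fell. Sfrp1, which binds ligands outside the cell, rose in both, from 7.03 to 7.27 FPKM in the controls to 9.67 to 11.9 FPKM in the Med23MSC-/- mice (log2 fold change 0.56 ± 0.10, adjusted p = 0.0479, limma) and from 8.36 to 8.70 FPKM in WT to 11.3 to 12.9 FPKM in the Runx2+/- mice (0.48 ± 0.09, adjusted p = 0.0403, limma). Sfrp2 rose in the Runx2+/- mice (0.99 ± 0.09, adjusted p = 0.00673, limma), and Sfrp4 fell in them (-1.24 ± 0.15, adjusted p = 0.0162, limma), with Sfrp4 values of -1.42 ± 0.37 (adjusted p = 0.1, limma) in the Med23 set. There Sfrp2 had -0.40 ± 0.21 (adjusted p = 0.323, limma), and its difference between the sets was -1.38 ± 0.25 (adjusted p = 0.0555, limma). Sost had -1.14 ± 0.25 (adjusted p = 0.0715, limma) in the Med23 set and 0.33 ± 0.22 (adjusted p = 0.549, limma) in the Runx2 set. Leaving out any 1 mouse took the Sfrp1 call away in both sets (adjusted p = 0.0602 to 0.182 and 0.0628 to 0.169, limma), as did 6 and 5 of 9 other settings. Leaving out WT mouse 1 took away that of Sfrp4 (adjusted p = 0.0577, limma, range 0.0268 to 0.0577). So did 3 of the 9 other settings (adjusted p up to 0.107, limma). Sfrp2 stayed past the threshold without each mouse (0.0146 to 0.0383) but not without a filter on low values (0.0518, limma). Wnt2b, Wnt7b and Sfrp4 lay below the controls of their set in every mouse of both mutants, as 1.7% of all genes did. Wnt11, Wls and Sfrp1 lay above them, as 3.03% did. Of the lists below, Nkd2 lay below in the same way, and Reck and Prickle1 lay above.

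None of the genes in the other 4 lists passed the test in either set, which held 12 of 17 further receptors and R-spondins, 24 of 25 intracellular components, 12 of 15 target genes and 15 of 18 planar polarity and calcium genes. At an unadjusted p of 0.05 in limma, the Med23 set gave 1 lower and 2 higher receptors, 0 and 1 intracellular components, 3 and 0 targets and 1 and 1 polarity genes, where 5.63% of all genes were lower and 15.7% higher. The Runx2 set gave 0 and 4, 0 and 2, 1 and 3, and 1 and 2 in the same order, where 8.32% and 7.09% of all genes were. Among the receptors and R-spondins, the smallest p-values belonged to Reck, a ligand-specific cofactor of Wnt7 signalling (log2 fold change 0.60 ± 0.12, adjusted p = 0.0552, Runx2 set), and to Rspo2, which keeps Frizzled receptors on the cell surface (0.56 ± 0.12, adjusted p = 0.0654, Runx2 set). Lrp4, a receptor that holds sclerostin, had -0.67 ± 0.15 (adjusted p = 0.0723, Med23 set), and Rspo3, a relative of Rspo2, had 0.53 ± 0.14 (adjusted p = 0.103, Med23 set), all by limma. Among the targets, Nkd2, a feedback inhibitor, had -0.82 ± 0.15 (adjusted p = 0.0517, limma, Med23 set) and Notum, which strips the lipid from ligands, had -0.56 ± 0.22 in the Med23 set and -0.55 ± 0.14 in the Runx2 set (adjusted p = 0.2 and 0.0995, limma). Axin2, the most widely used target, was at 0.11 ± 0.23 and 0.32 ± 0.18 (adjusted p = 0.815 and 0.45, limma). Tnfrsf11b, the decoy receptor that restrains osteoclasts, had -0.87 ± 0.23 in the Med23 set (adjusted p = 0.099, limma). Tcf7, a transcription factor of the pathway and itself a target, had 0.40 ± 0.12 in the Runx2 set (adjusted p = 0.155, limma), and Prickle1, a polarity gene, had 0.41 ± 0.11 in the Med23 set (adjusted p = 0.105, limma). Medians lay at -0.14 for the targets in the Med23 set and at 0.12 in the Runx2 set, beside 0.06 and 0.03 for all genes.

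**Figure D4:**
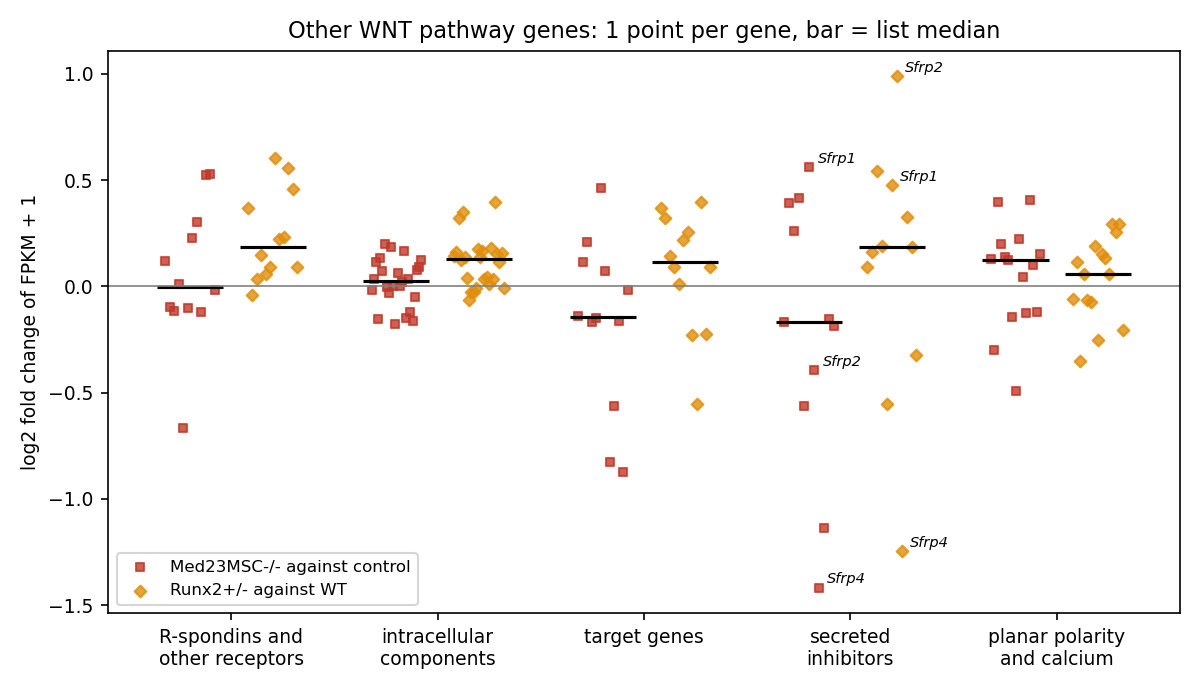
Log2 fold change of FPKM + 1 of the tested genes in the 5 other WNT pathway lists, 1 point per gene, with a bar at the median of each list, for Med23MSC-/- mice against controls (squares) and Runx2+/- mice against WT (diamonds). The secreted inhibitors are spread most widely, from -1.42 to 0.56 in the Med23 set and from -1.24 to 0.99 in the Runx2 set.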

How the data were processed

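Total RNA of 12 mice was sequenced with an Illumina library kit that is not stated to keep strand, and the authors deposited 1 FPKM value per RefSeq transcript and mouse. FPKM divides fragments by transcript length and depth, so that library size is removed before deposit. The submitters' processing notes name Bowtie 0.12.8 and mm10; the program that estimated FPKM is not given in the sources used here. Of 30411 transcripts, 29835 were matched to symbols through NCBI's table and 180 through GENCODE, and FPKM was added up per symbol.

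Genes at 1 FPKM or more in 3 or more mice were tested on log2(FPKM + 1) with limma 3.58.1 (R 4.3.3; mean-variance trend), 6 mice per set, with Benjamini-Hochberg adjustment over 13059 genes and a threshold of 0.05. The difference between sets was 1 contrast in a fit of 12 mice. The code was checked on simulated data. The plan named this test for normalized values. A p-value sets the difference between groups against the spread between these mice, with that spread drawn toward a trend over all tested genes. Fragments were estimated from the smallest FPKM values, which makes depth rough. Neither dates nor batches are given.

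The members and gene lists were chosen with earlier results of these data known. Members were given per mouse when they passed an adjusted or unadjusted p of 0.05 in either set, did not overlap between groups, or were among the 5 highest; of each pathway list, genes past the adjusted threshold and up to 4 with the smallest p could be named, and Axin2 was added after its values were seen. Alternatives were the pseudocount, the filter, 1 joint fit, the replicate number as a block, rescaling, the top transcript, no trend and each mouse left out. Python 3.11.15, pandas 2.3.3, numpy 2.4.6 and matplotlib 3.10.9 were used. Promoters are those of RefSeq for GRCm38.p6.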

Additional observations from a re-analysis of the deposited data

Results flagged for a closer look

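Wnt1, which was too low for the test, was flagged because its mice moved in opposite directions in the 2 sets. It was at 1.04, 0.814 and 0.557 FPKM in the controls and at 0.287, 0.352 and 0.294 FPKM in the Med23MSC-/- mice (mean 0.311 FPKM), all lower. It was at 0.280, 0.294 and 0.0576 FPKM in WT and at 0.965, 0.383 and 0.537 FPKM in the Runx2+/- mice, all higher. In a limma fit without a filter on low values (19006 genes), the log2 fold changes were -0.45 ± 0.10 (adjusted p = 0.132) and 0.42 ± 0.16 (adjusted p = 0.355), and the difference between them was -0.87 ± 0.20 (adjusted p = 0.126), which did not pass the threshold. The values rest on an estimated 1 to 28 fragments per mouse. Its neighbour Wnt10b on chromosome 15 had a lower log2 fold change in the Med23 set as well (-0.52) and 0.22 in the Runx2 set.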

How the results depend on the processing

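Across the alternatives, Wnt2b kept its direction in both sets, but the calls moved. The Med23 set had 73 lower and 132 higher genes. These counts became 0 and 1 without a filter (genes at 0 in all 6 mice of a set then stay in the fit), 190 and 527 with all 12 mice in 1 fit, 27 and 30 with the top transcript, 39 and 50 without a trend, and 132 became 57 after rescaling. The Runx2 set had 195 lower and 52 higher genes; these became 3 and 2 without a filter, 69 and 21 with the replicate block, 92 and 19 with the top transcript, and 195 became 56 in 1 fit. Without the 3 libraries with Xist, an alternative chosen after seeing the data that leaves 1 control, assumed to vary like the other mice, the counts were 0 and 0 in the Med23 set and 28 and 6 in the Runx2 set. Leaving out 1 mouse at a time gave 0 to 13 lower and 0 to 22 higher genes in the Med23 set and 28 to 135 and 6 to 34 in the Runx2 set; the cause was not tested, apart from the smaller number of mice.

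Of the members, 2 were called lower (Wnt2b, adjusted p = 0.0169, and Wnt10b, 0.0442) and 1 higher (Fzd8, 0.0373) in the Med23 set when all mice shared 1 limma fit, and 1 lower with the replicate block (Wnt2b, 0.0493), where the adjusted p of Wnt2b ranged from 0.0169 to 0.184 over all alternatives. The numbers of the labels were not taken as pairs: deviations of equally numbered mice correlated at 0.18, 0.259 and 0.0527 in the Med23 set, where each control was nearest to its own number, and at 0.00482, -0.0474 and -0.0836 in the Runx2 set. The block gave 92 lower and 181 higher genes in the Med23 set. In the Runx2 set, 0 members were lower without a filter and without the Xist libraries, and leaving out 1 mouse gave 0 to 1 lower and 0 to 1 higher members, the latter Wnt11 without Runx2+/- mouse 1 (adjusted p = 0.0488, limma; range 0.0488 to 0.237). Values that changed sign, none of them called, were Lrp5 in the Med23 set (-0.168 to 0.084 without 1 mouse, 0.12 without the Xist libraries), Wnt5b (-0.276 to 0.022) and Fzd1 (-0.021 to 0.414) in the Runx2 set, Fzd6 with the top transcript (-0.25 in the Runx2 set, 0.11 for the difference) and the difference for Wnt2b (-0.27 to 0.17). Low genes such as Wnt11 rest on few fragments, which limits how small a change could be seen.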
